A study of Mus musculus with 6 samples.

Results

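The oligoadenylate synthetase family was described in the RNA of B cells that had been sorted from the colon of mice given lenvatinib or DMSO. The 8 members were chosen by gene symbol, Oas1a, Oas1b, Oas1c, Oas1g, Oas2, Oas3, Oasl1 and Oasl2, out of 20591 symbols in the expression table. A row was found for 7 of the 8 members, and Oas1b was not analysed here. Of those 7, 6 passed the filter on low values, which asked for a scaled FPKM of 1 or more in 3 or more libraries, and Oas1g did not. The family was picked with the difference between these same groups already known, so the differences of its members are given as a description and no test is read from them.

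Lenvatinib is a drug that blocks several receptor tyrosine kinases, among them the receptors for vascular endothelial and fibroblast growth factors, and DMSO is the solvent given to the control mice. Its title sets the series in work on colitis under lenvatinib and on B cells that reach the gut through MAdCAM-1, an adhesion molecule of the endothelium. Each group held 3 libraries labelled as biological replicates, and the labels used here name no strain, age, dose or duration. They do not say whether each library came from a separate mouse, so p-values rest on how far these libraries spread, which may in part be technical.

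Oligoadenylate synthetases sense double-stranded RNA, a product of many viral infections. Once bound to it, the active enzymes join ATP into short oligoadenylates, messenger molecules of the antiviral response. The genes belong to the interferon-stimulated genes: type I interferon signals through its receptor and the kinases Jak1 and Tyk2 to a complex that contains Stat2 and Irf9 and binds response elements in their promoters.

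In mouse the family lies on chromosome 5 in 2 clusters. In RefSeq, Oasl2 and Oasl1 neighbour each other, and a separate cluster holds Oas2, Oas3 and the Oas1 genes, in which Oas1g lies next to Oas1a. Promoter sequences were found for 6 of the 8 members (RefSeq, build GRCm38.p6, 250 bases before to 50 bases after the start). The core of the interferon-stimulated response element, GAAA followed after any 2 bases by GAAA, was searched for on both strands. It occurred in the windows of Oas1a, Oas1g, Oas1c and Oas3, 4 of the 6 members, against 3.44 percent of all 32851 promoters of that length. The windows of Oasl1 and Oasl2 did not hold it. Those of Oas1a and Oas1g were identical at 85.3 percent of aligned positions, so their matches are not independent of each other. The 150 bases before the start are shown for the 4 members with a match and for Oasl1, the member with the highest level, with the match in capitals. They are chr5:120907526-120907675 for Oas1a, chr5:120887614-120887763 for Oas1g, chr5:120812515-120812664 for Oas1c and chr5:120777660-120777809 for Oas3, all on the minus strand, and chr5:114923090-114923239 on the plus strand for Oasl1.
Oas1a: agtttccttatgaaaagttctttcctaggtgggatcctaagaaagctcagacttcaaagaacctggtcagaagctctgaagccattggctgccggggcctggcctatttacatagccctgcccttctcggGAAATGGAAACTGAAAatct
Oas1g: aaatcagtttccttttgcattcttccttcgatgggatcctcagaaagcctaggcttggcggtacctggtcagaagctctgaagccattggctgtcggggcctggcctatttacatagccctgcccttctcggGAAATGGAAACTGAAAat
Oas1c: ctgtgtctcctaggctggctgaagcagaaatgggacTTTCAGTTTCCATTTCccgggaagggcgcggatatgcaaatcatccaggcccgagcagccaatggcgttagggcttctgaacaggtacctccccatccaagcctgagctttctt
Oas3: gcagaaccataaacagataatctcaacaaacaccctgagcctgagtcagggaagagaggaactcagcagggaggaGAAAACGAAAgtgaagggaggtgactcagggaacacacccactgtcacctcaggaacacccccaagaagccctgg
Oasl1: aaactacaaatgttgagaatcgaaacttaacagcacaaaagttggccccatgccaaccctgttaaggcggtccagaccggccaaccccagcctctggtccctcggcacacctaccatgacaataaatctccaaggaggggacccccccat
In Oas1a and in Oas1g there were 2 matches that overlapped each other, from 20 to 11 and from 14 to 5 bases before the start in Oas1a and from 18 to 9 and from 12 to 3 in Oas1g. Oas1c also held 2 overlapping matches, on the opposite strand and farther out, from 114 to 105 and from 108 to 99 bases before the start. The single match of Oas3 lay 75 to 66 bases before the start. The letters TTCNNNGAA of the gamma-activated site occurred in 1 of the 6 member windows, that of Oas1a, against 8.30 percent of all promoters. These matches describe letters only, and no binding was measured.

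Levels are given as scaled FPKM, the authors' fragments per kilobase of gene and per sequencing depth, after division by a factor for each library. The factors lay between 0.992 and 1.01. These levels are per length and can be set side by side between genes. Reads per library, worked out from the steps of the FPKM values, ranged from 26635279 to 31655500. Differences are lenvatinib minus DMSO on the scale of log2(scaled FPKM + 1), with their standard error (SE), and this scale understates the change of low genes.

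Of the 6 tested members, 5 were lower in the lenvatinib libraries, Oas1a, Oas2, Oas3, Oasl1 and Oasl2, and for each of these 5 the groups did not overlap. The members passing limma's threshold, an adjusted p of 0.05, were the same 5, all lower. Over all 9937 genes tested, 18.7 percent passed the threshold, 8.21 percent as lower and 10.4 percent as higher. Groups that did not overlap were found for 37.1 percent of all tested genes, 18.2 percent with lenvatinib lower and 18.9 percent with lenvatinib higher. The median difference of the 6 members was -1.12 and that of all tested genes was 0.0069. In bulk RNA, fewer cells that express a gene and less RNA per cell cannot be told apart.

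**Figure D1:**
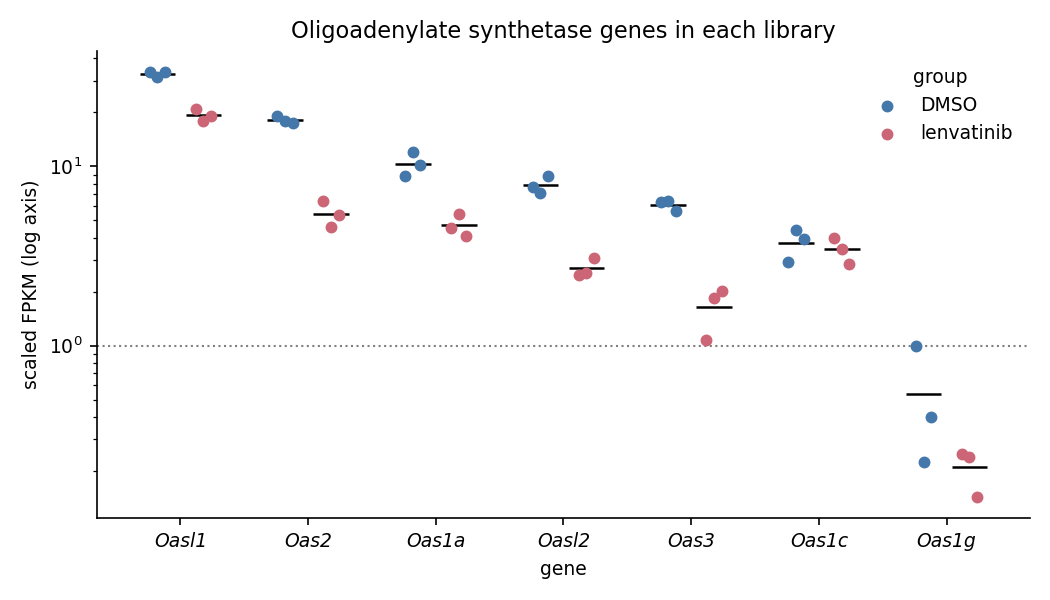
Scaled FPKM (log axis) of the 7 family members with a row, one point per library, for DMSO and lenvatinib, with black bars at the group means and a dotted line at the filter of 1. The lenvatinib points of Oas1a, Oas2, Oas3, Oasl1 and Oasl2 lie below all their DMSO points, while those of Oas1c and Oas1g overlap them.

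Oas2, an active synthetase built from repeated synthetase units, had scaled FPKM of 19.2, 17.9 and 17.5 in DMSO replicates 1, 2 and 3 and of 6.39, 4.59 and 5.33 in lenvatinib replicates 1, 2 and 3. All lenvatinib libraries lay far below the lowest DMSO library. The means were 18.2 ± 0.865 (SD, n = 3) and 5.43 ± 0.906 (SD, n = 3), which left 29.8 percent of the DMSO level and a difference of -1.59 (SE 0.10). Counted from the largest fall on this scale over all tested genes, Oas2 held rank 2. The other tested members held ranks 4 (Oas3), 8 (Oasl2), 17 (Oas1a), 39 (Oasl1) and 2857 (Oas1c).

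Oas3 is the longest enzyme of the family. Its scaled FPKM was 6.29, 6.42 and 5.63 with DMSO and 1.07, 1.85 and 2.01 with lenvatinib. The groups were separated, and lenvatinib replicate 1 was the lowest library. Means of 6.11 ± 0.423 and 1.64 ± 0.502 (SD, n = 3 each) corresponded to 26.9 percent of the DMSO level, the smallest remainder among the tested members, and to a difference of -1.45 (SE 0.144).

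Oas1a, an active short synthetase, had scaled FPKM of 8.89, 12.0 and 10.2 with DMSO and of 4.54, 5.44 and 4.10 with lenvatinib. The groups did not overlap, and the DMSO libraries spread more than those of Oas2. Its mean went from 10.4 ± 1.58 to 4.69 ± 0.680 (SD, n = 3 each), or 45.3 percent of the DMSO level, with a difference of -0.99 (SE 0.120).

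Oas1g, a near copy of Oas1a that is also an active enzyme, stayed below the filter and was not tested. Its scaled FPKM was 0.999, 0.224 and 0.398 with DMSO and 0.250, 0.240 and 0.144 with lenvatinib, so the groups overlapped and DMSO replicate 1 stood above the rest. The reads behind these values were 53, 14 and 24 with DMSO and 16, 14 and 8 with lenvatinib. They sum to 91 (95 percent exact Poisson interval 73.3 to 112) and 38 (26.9 to 52.2), intervals that cover counting error only. Without DMSO replicate 1 the DMSO mean was 0.311, against 0.211 with lenvatinib.

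The values of Oas1a and Oas1g are uncertain, because reads of near-identical genes can be split or dropped in counting. Their longest GENCODE transcripts were identical at 90.6 percent of aligned bases, and 57.6 percent of the 50-base windows of Oas1a occurred exactly in Oas1g. Taken as a sum, Oas1a and Oas1g gave 10.9 ± 1.22 with DMSO and 4.90 ± 0.722 with lenvatinib (SD, n = 3 each), which is 45.0 percent of the DMSO level. Oas1c shared 10.7 percent of its windows with other family genes, and Oas2, Oas3, Oasl1 and Oasl2 shared none.

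Oas1c is another Oas1 gene. Its scaled FPKM was 2.91, 4.40 and 3.96 with DMSO and 3.99, 3.47 and 2.85 with lenvatinib, and the groups overlapped across most of their range. The means were 3.76 ± 0.767 and 3.44 ± 0.571 (SD, n = 3 each), with a difference of -0.094 (SE 0.143, 95 percent interval -0.42 to 0.23). Oas1e, a related gene that is no member, had 1 read in lenvatinib replicate 2 and 0 in the other libraries.

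The Oas-like genes code for proteins with ubiquitin-like domains. Oasl1 lacks synthetase activity and restrains the translation of Irf7 mRNA, and it was the member with the highest level in every library. Its scaled FPKM was 33.6, 31.4 and 33.6 with DMSO and 20.9, 17.9 and 19.1 with lenvatinib. The groups were well apart, yet the decrease was the smallest of the 5, from 32.8 ± 1.25 to 19.3 ± 1.5 (SD, n = 3 each), or 58.6 percent of the DMSO level, a difference of -0.74 (SE 0.063).

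Oasl2, which keeps synthetase activity, had scaled FPKM of 7.68, 7.06 and 8.83 with DMSO and of 2.48, 2.54 and 3.10 with lenvatinib. No lenvatinib library reached the DMSO range. Its mean went from 7.86 ± 0.899 to 2.71 ± 0.340 (SD, n = 3 each), 34.5 percent of the DMSO level, and the difference was -1.26 (SE 0.106).

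Among the 5 lower members, the percentage left of the DMSO level therefore ran from Oas3 and Oas2 through Oasl2 and Oas1a to Oasl1. On a log2 scale with a pseudocount of 0.1 in place of 1, which compresses low genes less, the difference of Oas3 became -1.88 and that of Oas2 -1.74, so the order of these enzymes depends on the scale. The spread between replicates exceeded counting noise for the tested members. Oas3 with lenvatinib, for example, varied by 30.5 percent (coefficient of variation) where its mean of 235 reads gives 6.52 percent.

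**Figure D2:**
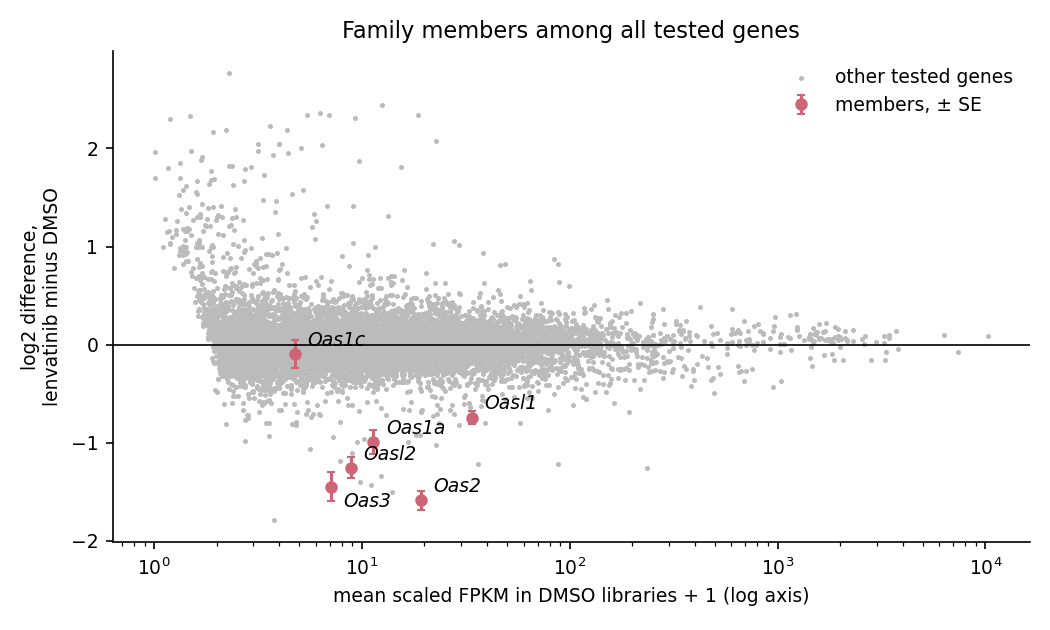
Difference between lenvatinib and DMSO on the log2(scaled FPKM + 1) scale against the mean DMSO level for all 9937 tested genes, with the 6 tested family members marked and their SE as bars. Oas2, Oas3, Oasl2, Oas1a and Oasl1 lie at the lower edge of the cloud, from -1.59 to -0.74, and Oas1c lies near 0.

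The summed level of the 7 members with a row was 79.7 ± 0.347 with DMSO and 37.4 ± 1.92 with lenvatinib (SD, n = 3 each), 46.9 percent of the DMSO level. The make-up of that sum also differed. Oasl1 made up 41.2 ± 1.48 percent with DMSO and 51.5 ± 1.60 percent with lenvatinib, and Oas1c 4.71 ± 0.962 and 9.18 ± 1.21 percent. Oas2 went the other way, from 22.8 ± 1.15 to 14.5 ± 1.70 percent, as did Oas3, from 7.68 ± 0.562 to 4.45 ± 1.52 percent (SD, n = 3 each). The share of Oas1a was 13.0 ± 2.00 percent with DMSO and 12.6 ± 2.17 percent with lenvatinib, a difference within the spread between libraries.

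**Figure D3:**
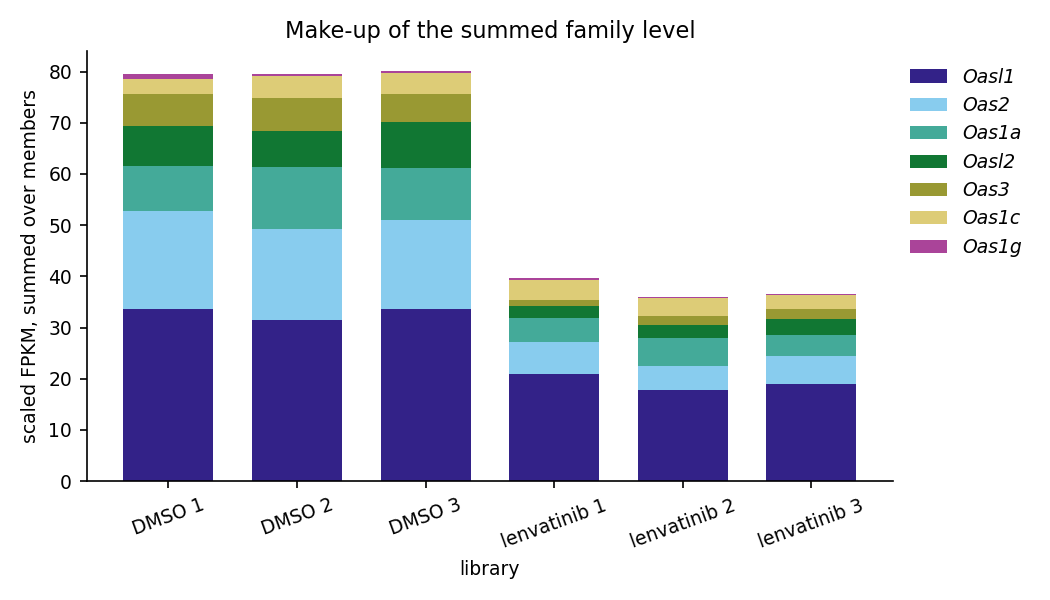
Stacked bars of scaled FPKM for the 7 family members with a row, one bar per library. The DMSO bars reach about the same height, 79.4 to 80.1, the lenvatinib bars 36.0 to 39.6, and Oasl1 forms the largest block in each.

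With DMSO the order of levels was Oasl1, Oas2, Oas1a, Oasl2, Oas3, Oas1c and Oas1g, and the ranges of neighbours did not overlap. The gap between Oas1a and Oasl2 was narrow, with a lowest Oas1a library of 8.89 and a highest Oasl2 library of 8.83. With lenvatinib Oasl1 stayed first, the ranges of Oas2 and Oas1a overlapped, and so did those of Oas1c and Oasl2. Oas3 stood below Oas1c and Oasl2, and Oas1g was last. Against the other tested genes, Oas3 moved from above 37.5 percent of them to above 9.02 percent, and Oas1c from above 26.3 to above 23.4 percent.

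Ratios within a library do not depend on its scaling. Oas2 stood at 0.522 to 0.571 of the Oasl1 level in the DMSO libraries and at 0.256 to 0.306 in the lenvatinib libraries. The ratio of Oas1c to Oas1a was 0.327 to 0.390 with DMSO and 0.638 to 0.879 with lenvatinib. Cd79a, a subunit of the B cell receptor, was itself lower with lenvatinib, at 77.5 percent of the DMSO level (limma adjusted p = 2.85e-05). Against Cd79a, Oas2 stood at 0.0170 to 0.0184 with DMSO and at 0.00578 to 0.00811 with lenvatinib. Oasl1 stood at 0.0298 to 0.0332 of the Cd79a level with DMSO and at 0.0225 to 0.0265 with lenvatinib. None of these ranges overlapped between the groups, but those of some other ratios did. Oas1a stood at 0.265 to 0.383 of the Oasl1 level with DMSO and at 0.215 to 0.304 with lenvatinib. The ratio of Oas2 to Oas3 was 2.79 to 3.11 with DMSO and 2.49 to 5.96 with lenvatinib. All these ratios use the values the family was chosen on and are a description only.

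The pathway around the family was described with 6 lists of 58 gene symbols, a few of them older names of listed genes. Of the listed genes, 33 were tested. Of these, 14 fell and 2 rose at an adjusted p under 0.05 (limma, Benjamini-Hochberg over all tested genes), and 17 did not pass. Over all tested genes, 8.21 percent fell and 10.4 percent rose at that threshold. The median difference of the 33 was -0.12. In the sentences below, adjusted p-values are from that same limma fit, and genes that did not pass are named after their values were seen.

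Of 8 tested genes of other double-stranded RNA sensors, 5 fell and 0 rose. Dhx58, a helicase related to RIG-I, had scaled FPKM of 16.6, 14.9 and 15.6 with DMSO and 6.84, 7.48 and 7.81 with lenvatinib and fell by 1.00 (limma adjusted p = 2.49e-05). Rigi, the RIG-I sensor itself, fell by 0.73 (limma adjusted p = 0.000504) and Zbp1, a sensor of left-handed nucleic acids, by 0.82 (limma adjusted p = 0.000158). Eif2ak2, the kinase PKR that halts translation, fell by 0.65 (limma adjusted p = 0.000164), and Adar, an RNA-editing deaminase, by 0.38 (limma adjusted p = 0.000766). Ifih1, the MDA5 sensor, had means of 1.94 ± 0.463 and 1.36 ± 0.0407 (SD, n = 3 each) and did not pass (limma adjusted p = 0.153).

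Among the transcription factors of the interferon-stimulated promoter, 5 of 8 fell and 0 rose. Stat2 and Irf9, which bind response elements together, fell by 0.65 and 0.43 (limma adjusted p = 5.17e-05 and 0.000302). Irf7, the factor that amplifies type I interferon, had scaled FPKM of 87.7, 88.5 and 83.6 with DMSO and 37.8, 37.2 and 35.0 with lenvatinib, and fell by 1.22 (limma adjusted p = 9.97e-07). Irf1 and Irf8 fell by 0.25 and 0.31 (limma adjusted p = 0.000459 and 0.000102). Irf3, which is activated by phosphorylation, had means of 33.8 ± 0.369 and 34.4 ± 1.52 (SD, n = 3 each; limma adjusted p = 0.797).

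Of 9 receptors and kinases, 1 rose and 1 fell, counts near the shares over all tested genes. Ifngr1, a subunit of the interferon gamma receptor, rose from 86.4 ± 3.94 to 154 ± 12.0 (SD, n = 3 each), by 0.82 (limma adjusted p = 1.81e-05). Jak1 fell by 0.12 (limma adjusted p = 0.02), a call lost without DMSO replicate 1, 2 or 3 and without lenvatinib replicate 1. Over all 13 alternatives limma's adjusted p for Jak1 ran from 0.000477 to 0.0722. The type I interferon receptor genes did not pass: Ifnar1 differed by -0.14 (limma adjusted p = 0.0604, and 0.00288 to 0.166 over the alternatives) and Ifnar2 by 0.028 (limma adjusted p = 0.885).

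Of 6 feedback inhibitors, 3 fell. Usp18, which blocks signalling at the type I receptor, had scaled FPKM of 8.40, 6.54 and 5.48 with DMSO and 1.67, 3.32 and 2.43 with lenvatinib and fell by 1.18 (limma adjusted p = 0.00222). Ptpn6, a phosphatase, fell by 0.24 (limma adjusted p = 0.000919). Isg15, a ubiquitin-like protein, fell by 0.23 (limma adjusted p = 0.0374), but this call was lost in 8 of 13 alternatives, among them without any 1 library other than DMSO replicate 1, with adjusted p from 0.0248 to 0.212.

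Of 21 interferon ligands listed, 8 had a row in the table and 1 of these passed the filter on low values. That gene was Ifng, interferon gamma, with scaled FPKM of 1.44, 1.22 and 1.43 with DMSO and 6.92, 8.24 and 6.87 with lenvatinib. It rose by 1.82 (SE 0.102, limma adjusted p = 6.94e-06). The summed markers of T cells were higher too, with means of 27.5 with DMSO and 110 with lenvatinib. Those of natural killer and innate lymphoid cells had means of 21.2 and 89.6. The part of these cells in the rise of Ifng was not tested. Ifnb1, interferon beta, had 0, 4 and 0 reads with DMSO and 38, 8 and 7 with lenvatinib, so lenvatinib replicate 1 held most of them and no test was made.

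**Figure D4:**
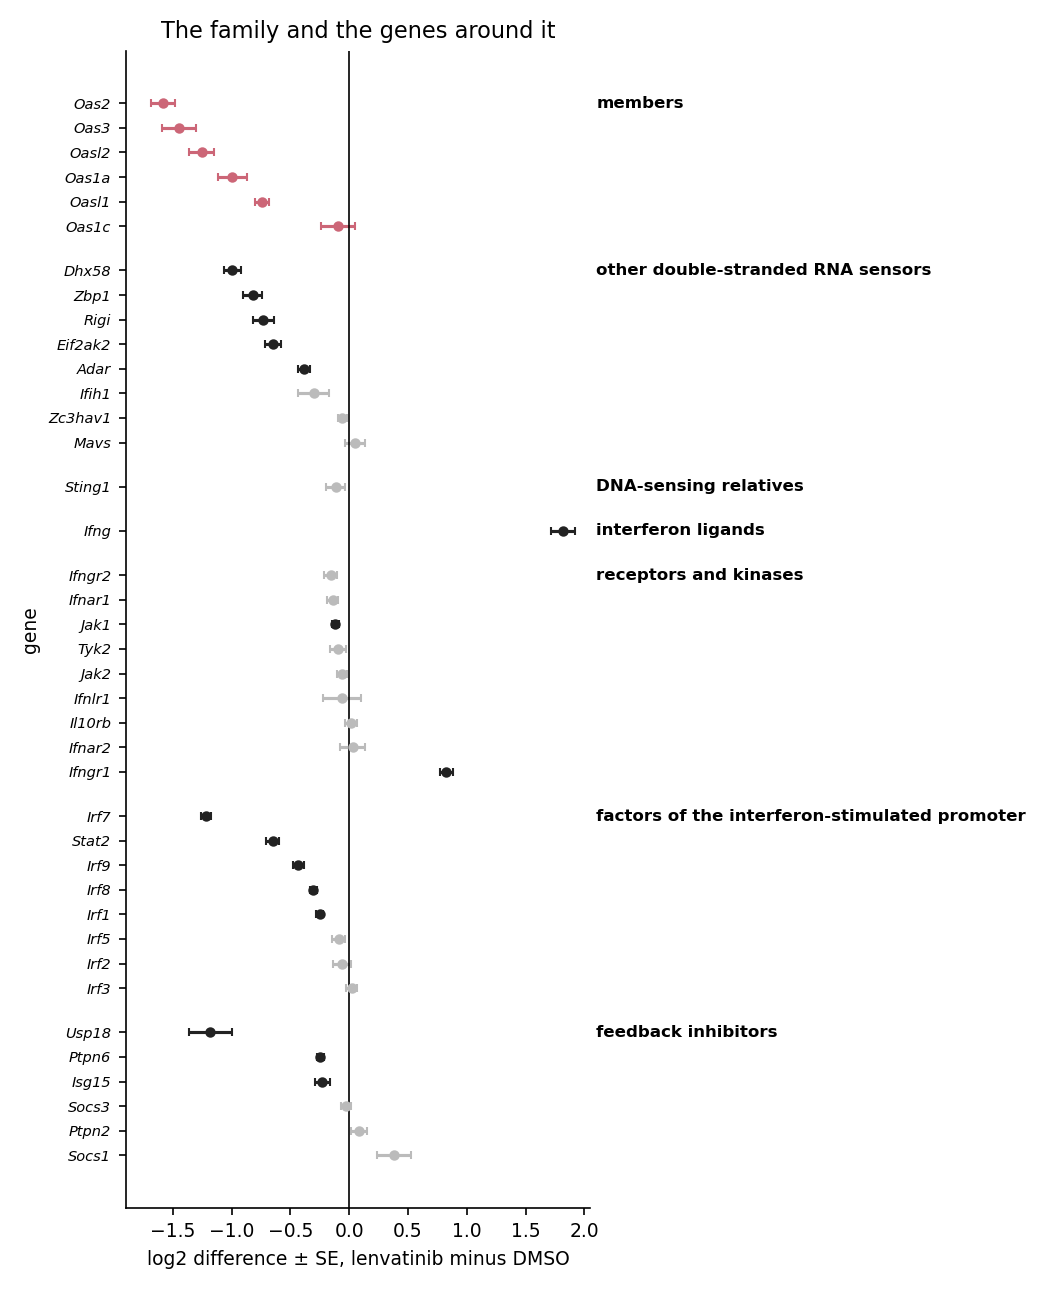
Difference between lenvatinib and DMSO on the log2(scaled FPKM + 1) scale for the family members (red) and the tested pathway genes by list, with SE as bars, black where limma's adjusted p was under 0.05 and grey otherwise. Irf7, Usp18 and Dhx58 fall by 1.22, 1.18 and 1.00, within the range of the lower members, while Ifng lies at 1.82.

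The 10 tested genes with profiles most like the family were those closest to the members' mean profile over the 6 libraries, by Euclidean distance on the log2 scale after centring each gene. Dhx58 was closest (distance 0.224), followed by Ifit1bl1 (0.244), Ifi208 (0.271), Irf7 (0.274) and Ifi206 (0.289). Rnf213 (0.299), Slc16a6 (0.310), Arrdc3 (0.311), Ifi213 (0.315) and Trim30a (0.340) completed the list. The mean profile uses the values the family was chosen on, so the list is a description only. Ifi206, Ifi208 and Ifi213 are DNA-sensor relatives in a multigene family that could share reads, and Slc16a6 is a solute carrier. The members themselves lay at distances from 0.326 for Oas1a to 1.19 for Oas1c, so 9 of these 10 genes were closer to the mean profile than any member, and Trim30a lay between Oas1a and Oasl1.

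Markers of B cells were high in every library, with a summed level of 2730 to 2776 with DMSO and 2294 to 2341 with lenvatinib, and 9 of 10 were called lower. Over all tested genes, 8.21 percent were called lower and 10.4 percent higher. Markers of other cells moved with the groups. The sums for T cells were 26.0 to 28.5 with DMSO and 109 to 112 with lenvatinib (6 of 9 tested genes higher). Cd4, Cd5 and Cd8b1 were not called. Their means were 1.25, 1.22 and 1.76 with DMSO and 1.27, 1.33 and 1.39 with lenvatinib, so this sum did not follow every marker. For natural killer and innate lymphoid cells the sums were 19.9 to 22.3 and 87.2 to 92.7 (7 of 7 higher). For colon epithelium they were 13.0 to 13.8 and 54.1 to 57.2 (6 of 6 higher). Neutrophil markers summed to 6.38 to 7.44 with DMSO and 11.7 to 16.9 with lenvatinib (2 of 3 higher). Ly6g was at 0 in all DMSO libraries, but it had a mean of only 0.667 reads with lenvatinib.

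The sums for macrophages and dendritic cells were 48.9 to 50.8 and 56.1 to 64.0 (1 of 8 higher). Plasma cell markers summed to 365 to 368 and 337 to 354 (1 of 6 higher and 1 lower). The higher gene was Jchain, with means of 45.9 and 62.9, and the lower gene was Irf4, with means of 136 and 104. The sum thus did not follow every marker of its list. Plasmacytoid dendritic cell markers summed to 422 to 457 and 354 to 374 (1 of 7 higher and 2 lower). In that last list most of the sum came from Ly6d and Bst2, which B cells also express. Endothelial markers summed to 42.3 to 43.1 and 33.3 to 33.6 (1 of 1 lower), nearly all of it from Pecam1, with means of 42.3 and 32.9. Every other gene of that list stayed below the filter on low values, and its groups overlapped. The lower sum thus follows Pecam1 and not the list as a whole. Madcam1 was at 0 in all lenvatinib libraries, but with DMSO it had a median of 0 and a mean of only 2 reads. Fibroblast markers summed to 1.32 to 2.32 and 1.72 to 2.26 (0 tested). The exact permutation test, two-sided, gave p = 0.1 for 9 of the 10 lists, the smallest p that 3 libraries against 3 allow (0.111 after Benjamini-Hochberg adjustment), and 0.6 for fibroblasts. The part of these cells in the differences of the family and of the pathway genes was not tested.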

How the data were processed

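Total RNA of sorted B cells was sequenced in 6 libraries, 3 per group. TRIzol extraction was followed by a VAHTS Universal V10 library kit, per the labels' protocols. HTSeq counting and build GRCm39 are named per the submitters' processing notes. The aligner, annotation, HTSeq version and strand setting are not given in the sources used here. A table of FPKM values was deposited by the authors, and its columns were matched to samples through the column names in the sample descriptions.

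The FPKM values were scaled by median-of-ratios factors from 9163 genes. The values log2(scaled FPKM + 1) of 9937 genes were fitted on treatment alone in limma 3.58.1 (R 4.3.3, trend and robust, two-sided, Benjamini-Hochberg over all tested genes). Whole reads were recovered from the FPKM steps for 19439 of 19715 genes with any value (98.6 percent, tolerance 1e-05) and used for counts of low genes and for limma-voom. Read recovery and fit were tested on simulated data.

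Every member is named, with pathway genes past the threshold and the 10 genes closest to the members' mean profile. The members, lists and tests were chosen with earlier results of these data known, and some pathway genes of those lists are not reported here. Promoters are from RefSeq on GRCm38.p6, another build than that of the FPKM values, and no measurement was placed on those coordinates. Alternatives were another pseudocount, no filter, other scalings, a replicate block, limma-voom and leaving out each library.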

Additional observations from a re-analysis of the deposited data

How the results depend on the processing

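The counts of 5 members lower and 0 higher were the same in all 13 alternatives, which reuse the values the family was chosen on and so add no support. Genes called lower numbered 816, and 545 to 1193 over the alternatives. Genes called higher numbered 1038, and 719 to 1261. The balance between them turned with the scaling: 978 were lower and 859 higher when libraries were scaled to the same sum, and 932 lower and 919 higher after quantile normalization. Same-numbered libraries did not deviate together (correlations from -0.0067 to 0.0065), so the numbers are not taken as pairs. With the replicate block, 648 genes were lower and 894 higher, the members lower stayed at 5, and 13 pathway genes were lower and 3 higher, with Jak1 no longer called (limma adjusted p = 0.0521) and Socs1 called higher (limma adjusted p = 0.0259). Some small differences that passed no threshold changed sign. Scaled to the same sum, Il10rb was at -0.0089 and Irf3 at -0.0047. With each library left out in turn, the difference ran from -0.23 to 0.0045 for Oas1c, from -0.073 to 0.087 for Ifnar2, from -0.16 to 0.071 for Ifnlr1, from -0.0069 to 0.036 for Il10rb, from -0.0020 to 0.057 for Irf3 and from -0.055 to 0.010 for Socs3. As a mean of log2 values in place of a sum, the marker difference changed sign to 0.012 for plasma cells and 0.0037 for plasmacytoid dendritic cells, and the cause was not tested. Depth limits Oas1g and the interferon ligands other than Ifng, as these genes had few reads.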
